A study of Mus musculus with 13 samples.

Results

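The genes described here are the immunoglobulin gene segments that could be read in RNA from mouse thymus and from thymic lymphomas. They were chosen by 2 properties of the deposited table: a gene biotype beginning with IG_, and a normalized read count that reached 10 in 2 or more of the 13 libraries. Of 43629 genes in the table, 469 carried such a biotype and 196 of them met the limit. Only 109 of the 196 lie at the heavy-chain locus Igh, the kappa locus Igk or the lambda locus Igl. On GRCm38 the 109 span chr12:113254830-115952831, chr6:67555636-70726757 and chr16:19085017-19260844. The other 87 are T cell receptor segments, 76 at the Tcra/Tcrd locus and 11 at Tcrg, which the annotation behind the table labels with IG_ biotypes, so the label holds for the 109 only. These 109 of 328 annotated Ig-locus segments are the subject of what follows, with the 87 given once near the end.

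The libraries were made from polyadenylated RNA of single-cell suspensions. There were 3 wild-type thymuses (WT thymus, C57BL/6), 5 thymic lymphomas of Atm-/- mice (129S6/SvEv background), which lack the DNA damage kinase ATM, and 5 thymic lymphomas of Rag2c/c p53-/- mice (mixed C57BL/6 and 129S6/SvEv background), which lack p53 and carry a RAG2 protein without its C-terminal part. Each lymphoma is a tumor of a separately numbered mouse, so that group values span different tumors, and strain goes with genotype throughout. The titles mark all 3 WT libraries as re-used from another study. Differences of genotype, strain, tumor against healthy tissue and the study in which a library was made therefore cannot be told apart. The lymphomas are called Atm-/- 1 to 5 and Rag2c/c p53-/- 1 to 5 here.

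Immunoglobulin genes are assembled in B lineage cells. The RAG1 and RAG2 recombinase joins a V, a D and a J segment at Igh, or a V and a J segment at Igk and Igl, and transcripts then run from the joined V segment into a constant region. Thymocytes use the same recombinase on T cell receptor genes. Unrearranged Igh constant and D-J regions can also be transcribed without a V segment, in lymphocytes of either lineage, and the first constant gene, Ighm, is closest to the J segments and to the intronic enhancer. The normal thymus holds a small population of B cells besides its many T lineage cells.

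The segments on which the differences between single lymphomas turn are shown first. Below are the last 120 coding bases of 6 V segments, written 5′ to 3′, with the codon of the last cysteine, next to which V joins D or J, in capitals.
Igkv1-133: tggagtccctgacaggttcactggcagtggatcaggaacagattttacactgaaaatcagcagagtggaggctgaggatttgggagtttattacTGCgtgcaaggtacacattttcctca
Igkv14-126: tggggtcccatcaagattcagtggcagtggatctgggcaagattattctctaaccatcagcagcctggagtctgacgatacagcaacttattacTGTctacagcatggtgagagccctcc
Igkv14-111: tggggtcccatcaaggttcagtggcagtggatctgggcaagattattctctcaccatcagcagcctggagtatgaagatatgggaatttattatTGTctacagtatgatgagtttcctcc
Igkv8-21: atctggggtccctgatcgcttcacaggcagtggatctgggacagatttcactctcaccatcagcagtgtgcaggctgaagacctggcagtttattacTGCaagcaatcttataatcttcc
Igkv6-15: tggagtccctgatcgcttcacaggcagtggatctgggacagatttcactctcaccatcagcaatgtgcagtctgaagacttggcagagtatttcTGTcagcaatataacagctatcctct
Ighv14-2: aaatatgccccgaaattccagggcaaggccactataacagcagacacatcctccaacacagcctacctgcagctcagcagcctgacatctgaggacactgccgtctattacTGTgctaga
The sequences are reference sequences from GENCODE vM21 (GRCm38), read from C57BL/6 and not from these mice. The stretches lie on chromosome 6 at chr6:67725542-67725661 (Igkv1-133, plus strand), chr6:67896523-67896642 (Igkv14-126, plus), chr6:68256750-68256869 (Igkv14-111, plus), chr6:70314895-70315014 (Igkv8-21, minus) and chr6:70406469-70406588 (Igkv6-15, minus), and on chromosome 12 at chr12:113994469-113994588 (Ighv14-2, minus), each inside the exon that encodes the variable domain. Over the 90 bases that end with the cysteine codon, Igkv14-126 and Igkv14-111 are alike at 81 positions and Igkv8-21 and Igkv6-15 at 83, whereas Igkv1-133 matches the other kappa segments at 63 to 73 and Ighv14-2 matches the kappa segments at 40 to 43.

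The J segments with the highest values in a lymphoma are given whole, with the TGGGG that begins the conserved tryptophan-glycine motif in capitals.
Ighj4: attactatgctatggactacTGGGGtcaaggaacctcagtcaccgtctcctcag
Ighj3: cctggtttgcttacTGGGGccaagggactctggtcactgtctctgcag
They lie on the minus strand of chromosome 12 at chr12:113428514-113428567 (Ighj4) and chr12:113429085-113429132 (Ighj3).

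Most of these segments are present through the WT thymuses alone. Of the 109, 104 reached 10 in at least 2 WT thymuses, and 77 of those reached 10 in no lymphoma. Only 21 reached 10 in at least 2 lymphomas and would have been chosen without the WT libraries. The 109 comprise 42 of 185 Igh V, 54 of 98 Igk V and 3 of 3 Igl V segments, 1 of 4 Igh J segments, 8 of 9 Igh constant genes and Igkc, with none of the 23 Igh D or 5 Igk J segments. Those just inside the limit were Igkv8-16, Gm16710 and Ighv1-39, with a second highest value of 10, and those just outside were Ighv8-12, Ighv1-4 and Igkv4-57-1, with 9. As a group that is high in the WT thymuses must by this choice tend to be lower elsewhere, the counts of members below describe the table and are no test of a difference.

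Sequencing depth limits the low values. From the spacing of low values, 1 read was worth between 0.51 and 3.38 units of the normalized count, and the libraries held an estimated 6.37 M to 38.8 M counted reads, M being the metric prefix mega. The shallowest were WT thymus 2 (6.69 M) and Rag2c/c p53-/- 2 (6.37 M). A value of 0 therefore allows up to 3 reads, or 4.52 units averaged over the Atm-/- and 4.58 over the Rag2c/c p53-/- libraries, counting error only. The deleted or altered genes were checked first. Atm was listed at 208 to 732 in the Atm-/- lymphomas and at 1559 to 2274 in the WT thymuses. Trp53 was listed at 2018 to 5461 in the Rag2c/c p53-/- lymphomas and at 4387 to 6341 in the WT thymuses, and counts over a whole gene need not fall when an allele is disrupted. Among T lineage genes, Cd3e was at 7309 to 18552 in all 13 libraries, so the lymphomas carry T lineage RNA as labelled. Of the 8 T lineage genes listed below, Cd5 was called lower in both lymphoma groups and Cd8a in the Atm-/- group. The other 6 were not called against WT thymus.

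The constant genes differed from each other: Ighm and Ighd overlapped between lymphomas and WT thymuses, whereas Igkc, Igha, Ighg2b and Ighe were lower in every lymphoma. Ighm, the constant gene of IgM (chr12:113418558-113422730), had values of 9040, 12750 and 8574 in the WT thymuses. In the Atm-/- lymphomas it had 4317, 5924, 2992, 27278 and 2145. In the Rag2c/c p53-/- lymphomas it had 3625, 905, 10714, 22279 and 2768. Lymphomas Atm-/- 4 and Rag2c/c p53-/- 4 lay above every WT thymus, Rag2c/c p53-/- 3 lay within their range, and the other 7 lay below it. The differences from WT thymus, −0.89 (SE 0.91) and −1.10 (SE 0.91) on the log2(value + 1) scale, did not pass the test (limma, Benjamini-Hochberg adjusted p = 0.443 and 0.362 over 15872 genes). Per kilobase of exon in GENCODE vM21, mean Ighm levels were 5367 in the WT thymuses, 4523 in the Atm-/- and 4273 in the Rag2c/c p53-/- lymphomas. For Igkc they were 4345, 1504 and 571.1. Over these lengths, 1886 bases for Ighm and 532 for Igkc, Ighm was the highest constant gene in both lymphoma groups. The counted Igkc gene spans fewer bases (chr6:70726435-70726757), a length that would raise its levels. Which of both genes was higher per kilobase in the WT thymuses therefore cannot be given.

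Ighd, the constant gene of IgD, which is transcribed together with Ighm and separated from it by splicing, was at 192, 162 and 202 in the WT thymuses. It was at 173, 153, 92, 540 and 121 in the Atm-/- lymphomas, with its highest value in Atm-/- 4, the lymphoma with the highest Ighm. It was at 42, 179, 207, 181 and 36 in the Rag2c/c p53-/- lymphomas. The groups overlapped and neither difference passed the test (limma adjusted p = 0.928 and 0.314).

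Igkc, the single kappa constant gene (chr6:70726435-70726757), had values of 2289, 2498 and 2148 in the WT thymuses. It had 887, 1512, 924, 325 and 353 in the Atm-/- lymphomas and 328, 648, 162, 91 and 290 in the Rag2c/c p53-/- lymphomas. Every lymphoma was below every WT thymus. The log2 fold change of Igkc was −1.77 in Atm-/- lymphomas (SE 0.58, limma adjusted p = 0.0249) and −3.22 in Rag2c/c p53-/- lymphomas (SE 0.58, adjusted p = 0.000998). The Atm-/- call was lost without any 1 of the 3 WT thymuses or without Atm-/- 4 or 5 (adjusted p = 0.0525 to 0.0738 in these fits). The difference between both lymphoma groups, 1.45 (SE 0.50), did not pass the test (adjusted p = 0.0802), though it did without Rag2c/c p53-/- 2 (1.80, adjusted p = 0.0269).

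The switched isotypes are the constant genes that a B cell joins to its V region by class switch recombination. Igha, the constant gene of IgA, was at 1284, 1121 and 1435 in the WT thymuses, at 37, 132, 282, 38 and 14 in the Atm-/- lymphomas and at 145, 81, 35, 37 and 58 in the Rag2c/c p53-/- lymphomas. It fell by 4.39 (SE 0.77, limma adjusted p = 0.000594) and by 4.35 (SE 0.77, adjusted p = 0.000881). Ighg2b, an IgG isotype, was at 768, 530 and 617 in the WT thymuses, at 60, 130, 102, 9 and 5 in the Atm-/- lymphomas and at 137, 27, 25, 7 and 67 in the Rag2c/c p53-/- lymphomas. It fell by 4.19 (SE 1.04, adjusted p = 0.00564) and by 4.16 (SE 1.04, adjusted p = 0.00726). Both genes were below the WT range in all 10 lymphomas.

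Ighe, the constant gene of IgE, was at 57, 39 and 73 in the WT thymuses and at 0 to 2 in the lymphomas, 7 of which were at 0. It was called lower in both groups (limma adjusted p = 8.49e-06 and 2.4e-05). Ighg3 was at 103, 23 and 28 in the WT thymuses, at 6, 2, 0, 2 and 0 in the Atm-/- lymphomas and at 1, 37, 2, 12 and 15 in the Rag2c/c p53-/- lymphomas. It passed the test in the Atm-/- group only (adjusted p = 0.00378 and 0.0805), and the difference between lymphoma groups did not pass (adjusted p = 0.166). With a pseudocount of 4, or without Rag2c/c p53-/- 2, which has the highest value of its group, Ighg3 was also called lower in the Rag2c/c p53-/- lymphomas (adjusted p = 0.0462 and 0.0306).

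Ighg2c is the IgG isotype that C57BL/6 mice carry in place of the Ighg2a gene of several other strains. It was at 336, 198 and 93 in the WT thymuses, at 183, 32, 19, 0 and 1 in the Atm-/- lymphomas and at 47, 101, 61, 12 and 50 in the Rag2c/c p53-/- lymphomas. It passed the test in the Atm-/- group (−3.95, SE 1.34, limma adjusted p = 0.0288), a call lost with only these 2 groups in the fit or without WT thymus 1 or 2 or Atm-/- 4 or 5, and did not pass in the Rag2c/c p53-/- group (−2.01, SE 1.34, adjusted p = 0.255), where it passed with only these 2 groups in the fit (adjusted p = 0.0382). The WT mice and the reference are C57BL/6. The Atm-/- mice are of another strain and the Rag2c/c p53-/- mice of a mixed background. Which allele the lymphomas carry was not tested, so strain and lower expression cannot be told apart for Ighg2c. With this limit on the Ighg2c call, Ighg1 was the only switched isotype not called lower in the Atm-/- group. In the Rag2c/c p53-/- group Ighg1, Ighg2c and Ighg3 alike were not called. Ighg1 was at 93, 23 and 38 in the WT thymuses, at 173, 84, 60, 28 and 100 in the Atm-/- lymphomas and at 23, 138, 15, 1 and 0 in the Rag2c/c p53-/- lymphomas. Its ranges overlapped in all 3 groups and no comparison passed the test (adjusted p = 0.633, 0.198 and 0.103), although without Rag2c/c p53-/- 2 it was called lower in Rag2c/c p53-/- lymphomas (−3.08, adjusted p = 0.0335). Of the 50-base windows of the Ighg2c transcript 5.49% also occur in another immunoglobulin gene, most in Ighg2b, and the values come from uniquely mapped reads.

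**Figure D1:**
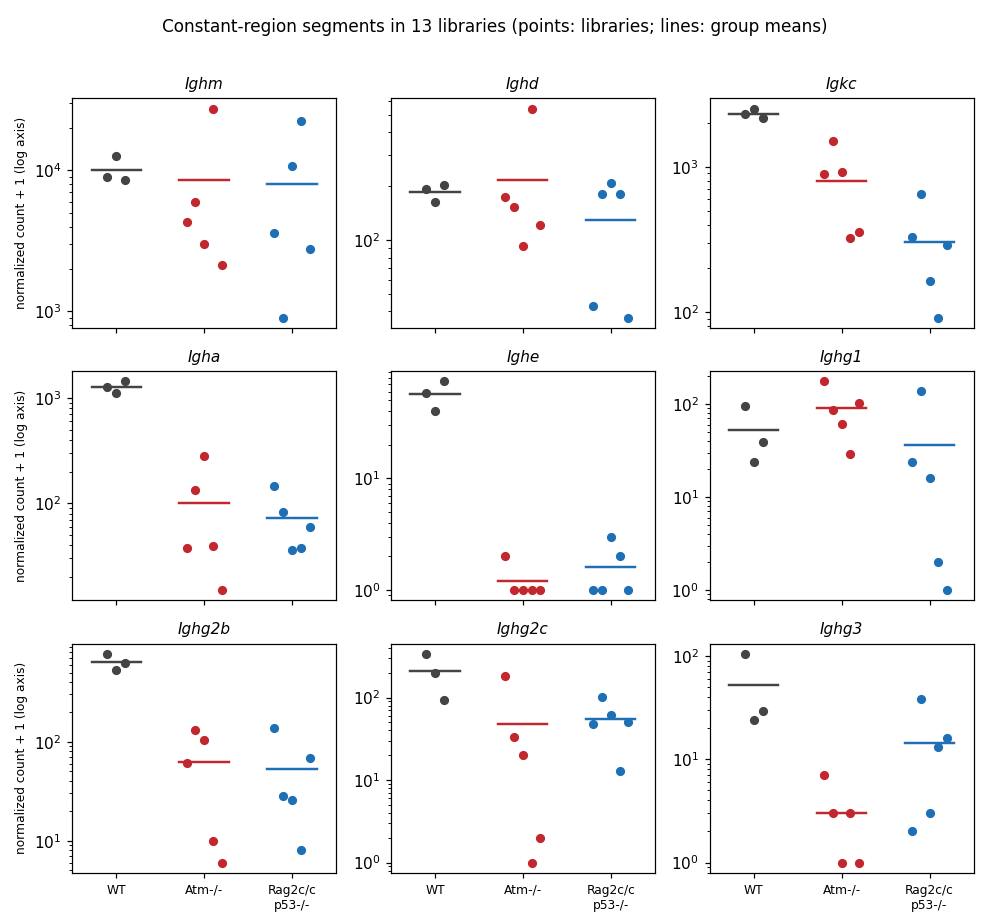
Normalized counts plus 1 (log axis, own scale in each panel) of the 9 constant-region genes in 3 WT thymuses, 5 Atm-/- lymphomas and 5 Rag2c/c p53-/- lymphomas; points are libraries and lines are group means. Ighm reaches 27278 and 22279 in 1 lymphoma of each group while Igkc, Igha, Ighe and Ighg2b lie below all WT thymuses in all 10 lymphomas.

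The V segments were read at low levels, and many reached 10 in a WT thymus but few in a lymphoma. Summed over 42 Igh V segments, the values were 1215, 686 and 1116 in the WT thymuses (1006 ± 281, SD, n = 3). They were 48, 19, 51, 8 and 24 in the Atm-/- lymphomas (30 ± 18.7, n = 5) and 71, 32, 27, 5 and 36 in the Rag2c/c p53-/- lymphomas (34.2 ± 23.8, n = 5). Over 54 Igk V segments the sums were 2347, 1384 and 2254 in the WT thymuses, 82 to 353 in the Atm-/- and 22 to 149 in the Rag2c/c p53-/- lymphomas. Over the 3 Igl V segments they were 271, 166 and 260, then 4 to 28 and 10 to 33. No lymphoma reached the lowest WT sum at any locus, and since the segments were chosen mostly through the WT thymuses these sums get no test.

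Set against the constant gene of the same library, the Igh V sum came to 13.4%, 5.38% and 13.02% of Ighm in the WT thymuses. It came to 1.11%, 0.321%, 1.70%, 0.0293% and 1.12% in the Atm-/- lymphomas and to 1.96%, 3.54%, 0.252%, 0.0224% and 1.30% in the Rag2c/c p53-/- lymphomas. The lowest ratios belong to Atm-/- 4 and Rag2c/c p53-/- 4, which had the highest Ighm values. The Igk V sum was 103%, 55.4% and 105% of Igkc in the WT thymuses and 11.6% to 51.0% in the lymphomas. Values of segments differ in length and in how uniquely they can be mapped, so these ratios compare libraries and give no share of rearranged transcripts. Of the 50-base windows of a V member's transcript, a median of 20.9% (Igh) and 30.2% (Igk) occur in another immunoglobulin gene, and reads from those windows may be lost from unique counts. The study that first used the WT libraries gives paired reads longer than these windows, so the percentages are no share of lost reads.

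**Figure D2:**
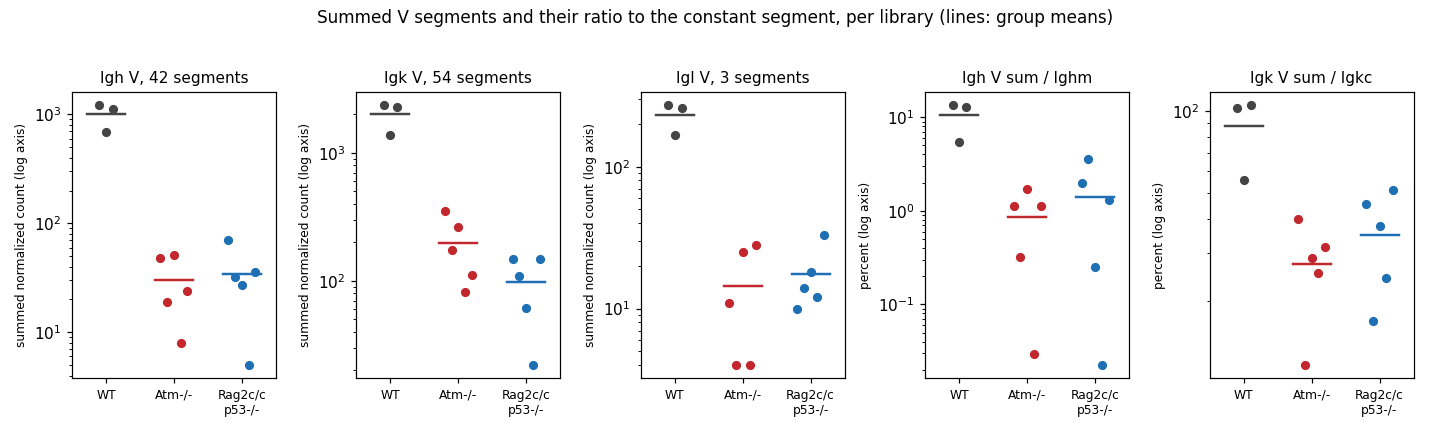
Summed normalized counts of the Igh, Igk and Igl V segments (3 left panels, log axis) and the Igh V sum as percent of Ighm and Igk V sum as percent of Igkc (2 right panels, log axis), per library with group means as lines. All 10 lymphomas lie below the 3 WT thymuses in every panel, with the lowest Igh ratios at 0.0224% and 0.0293%.

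In the WT thymuses the signal was spread over the repertoire. Of the 42 Igh V members, 32 to 39 reached 10 in a WT thymus and the highest held 7.53% to 11.4% of the summed value. These were Ighv3-6 (138) in WT thymus 1, Ighv1-64 (52) in WT thymus 2 and Ighv1-55 (84) in WT thymus 3. Of the 54 Igk V members, 42 to 52 reached 10 and the highest, Igkv12-46 (153), Igkv1-117 (91) and Igkv1-110 (190), held 6.52% to 8.43%. By family, the 20 Ighv1 members summed to 473 ± 149 (SD, n = 3) and the 13 Igkv4 members to 394 ± 92.1, and these families have the most members. The 21 Igh V members nearer to the J segments and the 21 farther away had similar WT sums, 617, 364 and 533 against 598, 322 and 583. Iglv1 led the lambda locus with 227, 117 and 194, followed by Iglv2 with 26, 39 and 45 and Iglv3 with 18, 10 and 21.

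In the lymphomas most V values were at or near 0. Of 210 Igh V values in 5 Atm-/- lymphomas, 154 were 0 and 4 reached 10. In the Rag2c/c p53-/- lymphomas 142 of 210 were 0 and 1 reached 10. At Igk 122 of 270 values were 0 and 25 reached 10 in the Atm-/- lymphomas. In the Rag2c/c p53-/- lymphomas 166 of 270 were 0 and 8 reached 10. Of all 99 V members, 76 stayed under 10 in every lymphoma, and all 3 WT thymuses were above all 10 lymphomas for 78. Igkv12-89, a kappa V segment at 44, 29 and 157 in the WT thymuses, was at 0 in all 10 lymphomas, which is at least 16.9-fold lower in the Atm-/- and at least 16.7-fold lower in the Rag2c/c p53-/- group when each library is put at 3 reads. Ighv1-26 was at 94, 23 and 63 in the WT thymuses and at 0 in all 5 Atm-/- lymphomas, at least 13.3-fold lower.

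Tested across the whole table, 75 of the 109 members entered the fit, which asked for 10 in at least 3 libraries. Of these 75, 74 reached 10 in all 3 WT thymuses, so the filter itself favoured lower calls. In Atm-/- lymphomas against WT thymus 66 were called lower and 1 higher, where 17.0% of all 15872 genes were called lower and 12.6% higher. In Rag2c/c p53-/- lymphomas 68 were called lower and 0 higher, against 13.9% and 9.77% of all genes. No member among the 75 was higher there at an unadjusted p under 0.05 either. The median log2 fold change of the 75 was −4.08 and −4.21 (−3.95 and −4.04 with members at 0 in a whole group placed at their limit), against −0.02 for all genes in both comparisons. Both comparisons share the 3 WT thymuses. Without WT thymus 1, 2 or 3 only 28 members were tested, and 15, 16 and 12 of them were called lower in Atm-/- and 19, 21 and 19 in Rag2c/c p53-/- lymphomas, where 19 and 21 of these 28 were called with all libraries. The higher call was lost without WT thymus 2 or Atm-/- 1, 2 or 3. Of the 21 members that reach 10 in at least 2 lymphomas, 20 were tested, and 11 were called lower in Atm-/- lymphomas and 13 in Rag2c/c p53-/- lymphomas. All 27 tested Igh V members were called lower in both comparisons. As all 27 had met the filter through the 3 WT thymuses, this count is no test. The exceptions in the Atm-/- comparison were Ighm, Ighd, Ighg1, Igkv17-121, Igkv4-74, Igkv8-21, Igkv6-23 and Igkv14-111, none called, and Igkv1-133, which rose. In the Rag2c/c p53-/- comparison Ighm, Ighd, Ighg1, Ighg2c, Ighg3, Igkv8-21 and Igkv1-133 were not called.

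The members nearest to the ends of the called range show how low the values ran. In Rag2c/c p53-/- lymphomas the largest falls after Igkv12-89 were those of Igkv12-46, at 153, 36 and 88 in the WT thymuses and 0 to 2 in these lymphomas, and Igkv17-127, at 45, 52 and 39 against 0 in all 5. The smallest called falls were those of Igkv4-91, Ighv1-75 and Igkv4-61 (−3.20, −2.86 and −2.36, SE 0.94, 0.72 and 0.80). In Atm-/- lymphomas the smallest called falls were those of Igkv14-126 (−2.38, SE 0.70, limma adjusted p = 0.0142; lost without WT thymus 3, where it was 175) and Igkc.

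**Figure D3:**
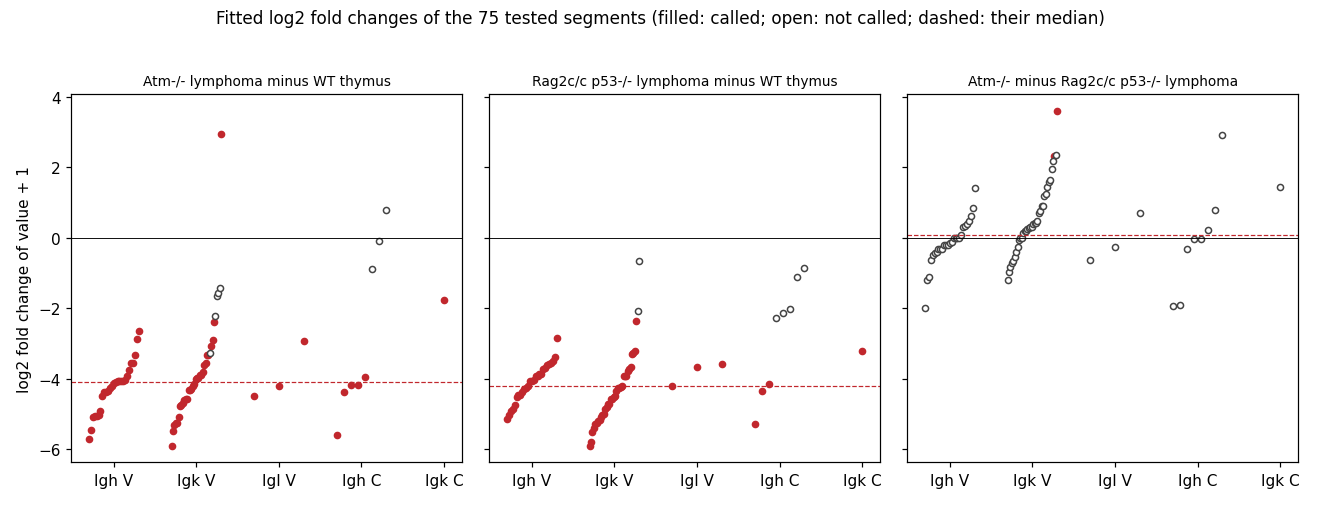
Fitted log2 fold changes of value + 1 for the 75 tested segments in 3 comparisons, by locus and segment class; filled points were called, open points were not, and the dashed line is the median of the 75. Medians lie at −4.08 and −4.21 against WT thymus and at 0.08 between both lymphoma groups.

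Single V segments stood out in single lymphomas at Igk. Igkv1-133, at 1, 0 and 1 in the WT thymuses, was at 57, 11, 25, 2 and 4 in the Atm-/- lymphomas and at 0 in all 5 Rag2c/c p53-/- lymphomas. All 5 Atm-/- libraries were above all 8 others, though the 2 in Atm-/- 4 is worth about 1 read. It was the only member called higher than in WT thymus (2.94, SE 0.81, limma adjusted p = 0.0103; not called without WT thymus 2, adjusted p = 0.0551, and no longer tested without Atm-/- 1, 2 or 3, as fewer than 3 libraries then reach 10). The Atm-/- mice are of a 129 strain and the WT mice are C57BL/6, so that the allele read and the genotype cannot be told apart here, and 36.0% of its 50-base windows recur in another segment, most in Igkv1-135. Igkv1-135 itself was at 122, 45 and 85 in the WT thymuses and at 12, 2, 12, 2 and 1 in the Atm-/- lymphomas.

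Between the lymphoma groups, where 7.84% of all genes were called, 2 of 75 members were called higher in Atm-/- lymphomas (3.51% of all genes) and 0 lower (4.33%). They were Igkv1-133 (3.61, SE 0.70, limma adjusted p = 0.00544) and Igkv14-126 (2.33, SE 0.61, adjusted p = 0.0251). At an unadjusted p under 0.05, 9 were higher and 2 lower. Ighv1-26 (−1.98, adjusted p = 0.027) and Igkv17-121 passed the adjusted limit but were not called, as neither lymphoma group reached a mean of 10. Igkv14-126 was at 46, 42 and 175 in the WT thymuses, at 9, 11, 12, 32 and 8 in the Atm-/- lymphomas and at 2, 7, 1, 0 and 2 in the Rag2c/c p53-/- lymphomas. All 5 Atm-/- values lay above the Rag2c/c p53-/- range, and the call was lost without Atm-/- 4 or Rag2c/c p53-/- 4 (adjusted p = 0.0614 and 0.0511).

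The kappa segment Igkv14-111 had the highest V value of any lymphoma, 116 in Atm-/- 1, with 28 in Atm-/- 3, 2 to 8 in the other 3 Atm-/- lymphomas, 1 to 7 in the Rag2c/c p53-/- lymphomas and 87, 16 and 37 in the WT thymuses. It made up 32.9% of the Igk V sum of Atm-/- 1. Igkv8-21 was at 74 in Rag2c/c p53-/- 1, where it held 49.7% of the Igk V sum, at 20 in Rag2c/c p53-/- 3, at 11 in Atm-/- 3 and at 0 to 2 in the other 7 lymphomas, against 18, 36 and 16 in the WT thymuses. Igkv6-15 was at 69 in Rag2c/c p53-/- 5, 46.6% of the Igk V sum, and at 0 or 1 in the other 9, against 55, 62 and 40 in the WT thymuses. These 3 and Igkv1-133 are the 4 V members whose highest value is in a lymphoma, and all are kappa segments. In the Atm-/- lymphomas the kappa V members farther from the J segments summed to 281, 127, 186, 67 and 71 and the nearer ones to 72, 48, 79, 15 and 40. In the Rag2c/c p53-/- lymphomas they summed to 40, 74, 30, 12 and 47 and to 109, 35, 31, 10 and 101, so that the farther part was the higher one in all 5 Atm-/- and in 2 of 5 Rag2c/c p53-/- lymphomas. In the WT thymuses the farther part summed to 1220, 717 and 1330 and the nearer to 1127, 667 and 924. The values of the named segments are a description of single tumors, chosen by their values, and have no replicate.

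In the other lymphomas the highest kappa segment had a value of at most 34. It was Igkv1-117 in Atm-/- 2 (34) and in Rag2c/c p53-/- 4 (4), Igkv14-111 in Atm-/- 3 (28), Igkv14-126 in Atm-/- 4 (32, 39.0% of the Igk V sum), Igkv15-103 in Atm-/- 5 (14), Igkv1-110 in Rag2c/c p53-/- 2 (20) and Igkv8-21 in Rag2c/c p53-/- 3 (20, 32.8%). A high share thus also stood on low sums, 82 in Atm-/- 4 and 61 in Rag2c/c p53-/- 3. At Igh the highest V member of a lymphoma had a value between 1 and 22. The 22 was Ighv14-2 in Rag2c/c p53-/- 1, against 40, 29 and 28 in the WT thymuses and 0 or 1 in the other 9 lymphomas. Ighv3-8 (16) led in Atm-/- 3, Ighv6-3 (12) in Atm-/- 1, and in the remaining 7 lymphomas the highest was at most 7. Among Igl segments Iglv1 was the highest in 12 of 13 libraries and level with Iglv3 at 2 in Atm-/- 2. It was at 2 to 33 in the lymphomas, with log2 fold changes of −4.22 (SE 0.71, limma adjusted p = 0.000435) and −3.58 (SE 0.71, adjusted p = 0.00178). The lambda constant gene Iglc2, listed as protein coding and therefore no member, was at 184, 146 and 169 in the WT thymuses and at 7 to 51 in the lymphomas.

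**Figure D4:**
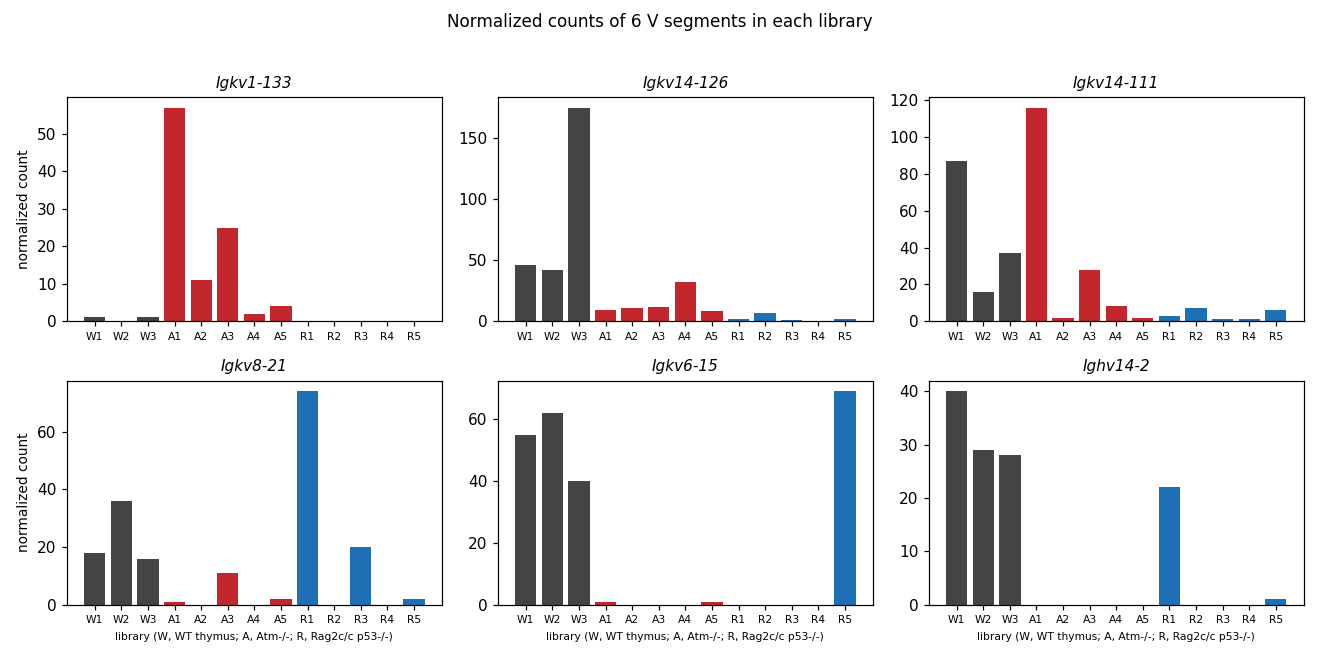
Normalized counts of 6 V segments in each of the 13 libraries (W, WT thymus; A, Atm-/- lymphoma; R, Rag2c/c p53-/- lymphoma; bars start at 0, own scale in each panel). Igkv1-133 is read in the Atm-/- lymphomas, while Igkv14-111 peaks in A1 (116), Igkv8-21 in R1 (74), Igkv6-15 in R5 (69) and Ighv14-2 among lymphomas in R1 (22).

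An Igh J segment reached 10 in 2 lymphomas. Of these, Atm-/- 4 had the highest Ighm of all 13 libraries, and Rag2c/c p53-/- 3 had an Ighm value within the WT range. Ighj4, the single J member, reached 49 in Atm-/- 4 and 12 in Rag2c/c p53-/- 3, and stood at 0 to 5 in the other 11 libraries. Ighj3 was at 36 in Atm-/- 4, 6 in Rag2c/c p53-/- 3 and 0 to 3 elsewhere. The 4 Igh J segments summed to 89 in Atm-/- 4, to 24 in Rag2c/c p53-/- 3, to 3 in Rag2c/c p53-/- 4 and to 16, 0 and 21 in the WT thymuses. The D segments, none a member, summed to 16 in Rag2c/c p53-/- 4 and to 0 to 7 in the other 12 libraries. In Atm-/- 4, then, Ighm and J were the highest of all 13 libraries beside an Igh V sum of 8, and 96.2% of the summed immunoglobulin value of that library was Ighm.

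Between Ighm and Ighj4, 3 genes annotated as miRNAs lie in the intron where the intronic enhancer and the switch region of Ighm are known to be. Gm22175, 2.42 kb from the end of Ighm, was at 114, 231 and 99 in the WT thymuses. It was at 2, 9, 5, 68 and 1 in the Atm-/- lymphomas and at 20, 0, 15, 43 and 12 in the Rag2c/c p53-/- lymphomas, so that Atm-/- 4 and Rag2c/c p53-/- 4 again held the highest value of their group. Its log2 fold changes were −4.196 (SE 1.19, limma adjusted p = 0.0121) and −3.61 (SE 1.19, adjusted p = 0.0299), and Gm25747 and Gm24022 beside it were also called lower in both groups.

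On the other side of the constant genes lie Tmem121, Crip1, Crip2 and Mta1, protein-coding genes outside the locus. Mta1 was at 34099 and Crip2 at 888 in Rag2c/c p53-/- 4, against 3681 to 5038 and 75 to 143 in the WT thymuses. Tmem121 was at 2161 in Rag2c/c p53-/- 4 and 2678 in Rag2c/c p53-/- 2 against 262 to 283 in the WT thymuses, and was called higher in the Rag2c/c p53-/- group (1.83, SE 0.67, limma adjusted p = 0.0453). Crip2 and Crip1 were called lower in Atm-/- than in Rag2c/c p53-/- lymphomas (−2.42 and −1.72, adjusted p = 0.0104 and 0.0197). At the V end, the neighbours Zfp386 and Esyt2 were called lower in both lymphoma groups. None of 19 genes of other biotypes inside Igk reached the filter. At Igk, Il12rb2 outside the V end was called higher in both groups and Gadd45a and Eif2ak3 were called lower in the Atm-/- group, and 2510002D24Rik beside Igl was called lower in the Atm-/- group.

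**Figure D5:**
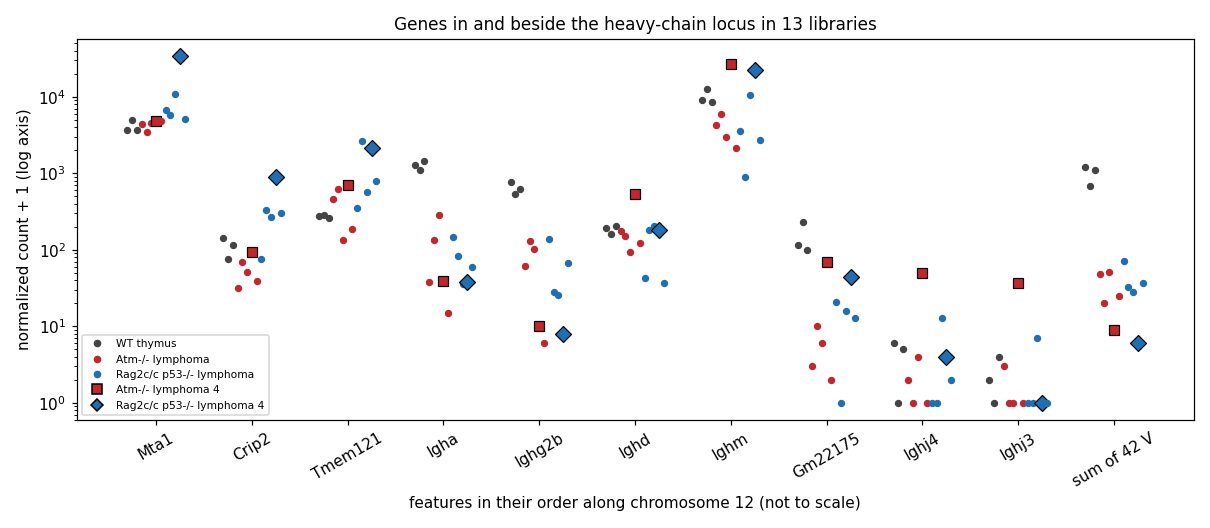
Normalized counts plus 1 (log axis) of genes in and beside Igh in their order along chromosome 12, from Mta1 outside the constant end to the summed V segments, for 13 libraries; the square is Atm-/- lymphoma 4 and the diamond Rag2c/c p53-/- lymphoma 4. Both are the highest points of their groups at Ighm (27278 and 22279) and the lowest at the V sum (8 and 5).

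Most tested B cell genes were, as most immunoglobulin segments, lower in the lymphomas. Not all of them followed Ighm from library to library: Cd79a and Ms4a1 did not, whereas Blk, like Ighm, was highest in Atm-/- 4. Cd79a, a signalling chain of the B cell receptor, was at 308, 279 and 287 in the WT thymuses, at 67, 91, 78, 19 and 56 in the Atm-/- lymphomas and at 19, 132, 34, 26 and 28 in the Rag2c/c p53-/- lymphomas (log2 fold changes of −2.38 and −2.97, SE 0.60 each, limma adjusted p = 0.00598 and 0.00197). Of 11 B cell genes 10 were tested, and 6 were called lower in the Atm-/- group and 7 in the Rag2c/c p53-/- group, none higher. For this and the following lists, the shares of all genes were 17.0% and 13.9% called lower and 12.6% and 9.77% called higher. Cd79a, Cd79b, Ms4a1, Cr2, Ebf1 and Fcer2a were lower in both, Pax5 was lower in the Rag2c/c p53-/- group, and Cd22 (70 to 184 in lymphomas, 101 to 191 in WT), Blk and Pou2af1 were called in neither. The summed level of the 11 genes was 1924 to 2503 in the WT thymuses, 484 to 1989 in the Atm-/- and 466 to 797 in the Rag2c/c p53-/- lymphomas, the Atm-/- range being led by Blk and Pou2af1, which reach 887 and 976 there. Of the lymphomas with the highest Ighm, Atm-/- 4 had the highest summed level of all 10 (1989, with Ms4a1 at 0). There Blk held 887 and Pou2af1 820 of the sum, while Cd79a (19) was the lowest of its group. Rag2c/c p53-/- 4 had a summed level of 466 (with Pax5 and Cr2 at 0). Rag2c/c p53-/- 2 had the highest Cd79a (132) of its group and, in the same library, the highest Igkc (648) and Ighg1 (138) of the group. Its Ighm value (905) was the lowest of all 13 libraries. Their part in the immunoglobulin differences was not tested, and in bulk RNA fewer B cells and less RNA per B cell cannot be told apart.

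Genes of antibody-secreting cells gave a mixed picture. Igj, the joining chain of IgM and IgA polymers, was at 664, 465 and 570 in the WT thymuses, at 45 to 130 in the Atm-/- and at 13 to 41 in the Rag2c/c p53-/- lymphomas. Its log2 fold changes were −2.86 and −4.37 (SE 0.47 each, limma adjusted p = 0.000358 and 2.92e-05), and it was higher in Atm-/- than in Rag2c/c p53-/- lymphomas (1.504, SE 0.40, adjusted p = 0.0293), a call lost with only these groups in the fit or without Atm-/- 2 or 3 or Rag2c/c p53-/- 3 or 4 (adjusted p = 0.0556 to 0.0732). The 8 listed genes summed to 4438 to 4497 in the WT thymuses, 3310 to 5041 in the Atm-/- and 2618 to 4778 in the Rag2c/c p53-/- lymphomas, so that the groups overlapped, and 7 of the 8 were tested. Igj, Mzb1 and Prdm1 were lower in both groups, Irf4 was called lower in the Rag2c/c p53-/- group, and Sdc1 was higher in both, with 1004 to 2795 in the lymphomas against 45 to 54. Sdc1, which also marks other cell types, therefore moved against the rest of its list. Of 4 pre-B cell genes 2 were tested. Vpreb1, of the surrogate light chain, was at 64, 36 and 44 in the WT thymuses, at 2 to 14 in the Atm-/- and at 10 to 19 in the Rag2c/c p53-/- lymphomas, lower in both, and Dntt, which thymocytes also express, was called lower in Atm-/- lymphomas.

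Of 6 plasmacytoid dendritic cell genes only Siglech was called, lower in both groups and higher in Atm-/- than in Rag2c/c p53-/- lymphomas. Of 6 myeloid genes 4 were higher in Atm-/- lymphomas (Cd14, Cd68, Itgam, Lyz2) and 2 in Rag2c/c p53-/- lymphomas (Cd14, Cd68). Of 8 T lineage genes Cd5 was lower in both groups and Cd8a in Atm-/- lymphomas. For lists this short, the plasmacytoid dendritic cell and T lineage counts are not far from the shares of all genes called lower (17.0% and 13.9%). They are no result about these lists. Rag1, the catalytic subunit of the recombinase, was at 48182 to 70834 in the WT thymuses, at 2383 to 7116 in the Atm-/- and at 5620 to 23493 in the Rag2c/c p53-/- lymphomas, and Rag1 and Rag2 were called lower in both. Atm was lower in both groups as well, at 439 to 1315 in the Rag2c/c p53-/- lymphomas, which carry no Atm deletion by their labels.

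The 87 T cell receptor segments that share the IG_ biotype differed from the Ig segments in where they were read. Of these, 64 reached 10 in at least 2 lymphomas, and 8 were present through the WT thymuses alone. Of 71 tested at Tcra/Tcrd, 48 were called lower in the Atm-/- group (17.0% of all genes) and 40 in the Rag2c/c p53-/- group (13.9% of all genes). Of 10 tested at Tcrg, 0 were called in Atm-/- lymphomas against WT thymus (limma), where 1 was lower at an unadjusted p under 0.05, and 4 were lower in Rag2c/c p53-/- lymphomas, beside the same shares of all genes.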

How the data were processed

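RNA of 13 libraries was measured by stranded polyA RNA sequencing. According to the deposited labels and the methods of the study that first used the WT libraries, taken to hold for all 13, the authors mapped reads with STAR 2.4.0g1 (GRCm38), discarded duplicates with Picard, counted uniquely mapped reads per Ensembl gene and normalized the counts with DESeq2 1.6.3. The strand setting of counting is not given in the sources used here. The deposited values are these normalized counts, rounded to whole numbers and handled as a score, since raw counts cannot be read back from them, so no count test was run. Group means, fold changes and p-values of the authors in the same table were not used. Unique mapping loses reads of near-identical V segments, and the reference is C57BL/6.

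Genes with at least 10 in at least 3 libraries (15872) were fitted together as log2(value + 1) in 3 groups with limma 3.58.1 (R 4.3.3; moderated with trend and robust options). A gene was called at a Benjamini-Hochberg adjusted p under 0.05, a log2 fold change of at least 1 in size and a group mean of 10 or more on 1 side of the comparison. Fold changes on this scale understate those of low genes. On simulated data, 94%, 90% and 95% of genes changed by 1.5 on the log2 scale were recovered in Atm-/- against WT, Rag2c/c p53-/- against WT and Atm-/- against Rag2c/c p53-/-. Every simulated gene had the same fixed dispersion, whereas tumors differed widely at genes such as Ighm (mean 8531, SD 10577 in Atm-/- lymphomas). These rates therefore need not hold for such genes. Tables were summarised with Python 3.11.15 and pandas 2.3.3. Depth was estimated from the steps between low values, with 6.37 M to 38.8 M reads (M, mega) per library. Column totals were 19788898 to 21591289.

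Groups follow the labels. Nothing in the labels gives separate cultures, so p-values measure the spread between these samples. Segments named are all constant genes, D and J segments by range, the highest V segment per library and locus, per comparison 3 called members from the top and 3 from the bottom by fold change, 3 on each side of the limit of 10, listed marker genes and called locus neighbours. Igkv1-135, Igkv14-111, Igkv8-21 and Igkv6-15 were also described for their values. Some marker genes are not reported here and were taken out of the lists. The members and lists were chosen with earlier results of these data known. Alternatives were other scalings, filters, pseudocounts, fold limits, groups in the fit and moderation, and each library left out. Sequences were read from GENCODE vM21 transcripts of GRCm38, where 193 of 196 members were matched.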

Additional observations from a re-analysis of the deposited data

Results flagged for a closer look

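Single libraries stood far from the other 4 of their group in 8 of 34 groups tested, where the gap to the nearest value exceeded 0.710 of the range. This is Dixon's limit for 5 samples, which chance exceeds in about 1 of 20 groups of normally distributed values. It was applied to normalized counts and not to their logarithms, so that rate need not hold here. In Atm-/- lymphoma 4 the values that stood apart were Ighm (27278), Ighd (540) and Ighj4 (49), 3 features at the J end of Igh. In Rag2c/c p53-/- lymphoma 2 they were Ighg1 (138) and the B cell gene Cd79a (132). The others were Ighg2c in Atm-/- lymphoma 1 (183), Ighj4 in Rag2c/c p53-/- lymphoma 3 (12) and Ighe in Atm-/- lymphoma 1, where the value is 1 beside 4 values of 0.

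The lymphoma groups differed in 9 of the members, listed genes and locus neighbours by the test of the difference itself (limma, values on the log2 scale). In this comparison 7.84% of all 15872 genes were called, and 2 of the 75 tested members. The 9 are therefore a list and no result about these sets. Trp53 among them is the gene altered in Rag2c/c p53-/- mice. Higher in Atm-/- lymphomas were Igkv1-133 (3.61), Igkv14-126 (2.33), the joining chain gene Igj (1.504), Pou2af1 (2.32), Siglech (1.62), Trp53 (1.38) and Il12rb2 (1.35). Lower in Atm-/- lymphomas were Crip2 (−2.42) and Crip1 (−1.72). The calls of Igkv14-126 and Igj were lost without single lymphomas.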

How the results depend on the processing

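No paired analysis was possible because the lymphoma titles carry mouse numbers and the groups share no replicate numbers. Without 1 library, the members called lower in Atm-/- lymphomas against WT thymus ranged from 12 to 68 and those called higher from 0 to 1, with 0 without WT thymus 2 or Atm-/- lymphoma 1, 2 or 3. In Rag2c/c p53-/- lymphomas 19 to 70 were lower and 0 to 0 higher. Between lymphoma groups 1 to 4 were higher in Atm-/- and 0 to 0 lower. The low ends against WT come from leaving out WT thymus 1, 2 or 3 (15, 16 and 12 lower in Atm-/-, 19, 21 and 19 in Rag2c/c p53-/-), where 28 members were tested. Of these 28, 19 and 21 were called lower with all libraries, so fewer tested members account for a part of the drop, and the cause of the rest was not tested. Without WT thymus 2 and Rag2c/c p53-/- lymphoma 2 together, a setting chosen after seeing the data, 27 were tested, 16 were lower and 0 higher in Atm-/-, 20 were lower in Rag2c/c p53-/-, and 4 were higher in Atm-/- than in Rag2c/c p53-/-. All 54 counts under other scalings, filters, pseudocounts, fold limits, groups in the fit and moderation stayed within 1.5 times. The direction of Ighd in Atm-/- lymphomas turned without Atm-/- lymphoma 3 (0.14) or 5 (0.05), and its range was −0.49 to 0.14. The difference of Igj between lymphoma groups lost its call in 5 settings. Summed values and top V shares moved by less than 1 SD in all 76 recomputed values. Depth limits single V segments in lymphomas, where 3 reads are worth over 4 units on average.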

Other observations

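Segments under the limit of 10 in 2 libraries hold a few single-library values. Of the 219 such segments at the Ig loci, 92 were at 0 in all 13 libraries, and 30 had 1 value of at least 10, 4 of these in a lymphoma. The pseudogene Ighv3-2 was at 34 in Atm-/- lymphoma 1, at 0 in all 3 WT thymuses and at 0 to 2 in the other lymphomas. Of the 69 V pseudogenes with an IG_ biotype at these loci, 0 are members.

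Adam6b, which lies among the heavy-chain segments between D and V and encodes a sperm protein, was at 9, 3 and 6 in the WT thymuses, at 12 in Rag2c/c p53-/- lymphoma 4 and at 0 in the other 9 lymphomas. That lymphoma also had the highest summed D value (16).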
